A study of Arabidopsis thaliana with 6 samples.

Results

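Genes of plant sulfur nutrition were examined in Arabidopsis thaliana rosettes that had grown on a limiting sulfate supply. The 5 genes were chosen by name: BGLU28 (AT2G44460) and AT1G04770 as markers of sulfate starvation, and SIR (AT5G04590), APS3 (AT4G14680) and APS4 (AT5G43780) as enzymes of sulfate assimilation. Each had 1 probe set that carried no other gene name, out of 13355 genes measured in this way and 22810 probe sets on the array. The 5 were 267389_at for BGLU28, 261177_at for AT1G04770, 250846_at for SIR, 245254_at for APS3 and 249112_at for APS4.

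The wild type Col-0 was compared with sid2.2, a mutant of ICS1, the isochorismate synthase of salicylic acid synthesis. All plants, of both genotypes, received 0.016 mM sulfate for 60 days from sowing, under 8 h of light and 16 h of dark, so no plants with ample sulfate were compared here. Each of 3 cultures, grown at intervals of several months, gave 1 pool of more than 6 rosettes per genotype, and each pool was hybridised to 1 array. Replicate and culture numbers are the same. No probe set named ICS1 was used here to check the genotype.

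Plants take up sulfate and activate it with ATP to adenosine phosphosulfate, the step of ATP sulfurylase. The product is reduced to sulfite and then, by sulfite reductase, to sulfide, which enters cysteine. In sulfate-starved Arabidopsis, genes of uptake and reduction are induced while sulfur is recovered from glucosinolates, sulfur-rich defence compounds whose synthesis is held back. BGLU28 encodes a beta-glucosidase that acts on glucosinolates, and its transcript is a widely used marker of low sulfate. SIR encodes the plastid sulfite reductase. APS3 and APS4 encode ATP sulfurylases, 2 of several isoforms, and the mRNAs of both are targets of miR395, a microRNA that sulfate starvation induces. For AT1G04770 the annotation used here gave no symbol and no role beyond its use as a marker.

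Facts of the arrays bear on every value below. Signals were made with MAS5, which combines the probes of a probe set within an array and scales each array to a common mean, and median signals were between 130.7 and 162.3. In the first principal component of the log2 signals (55.5% of the variance), Col-0 replicates 1 and 2 lay at -41.3 and -51.4. At the other end, sid2.2 replicate 2 lay at 54.3 and Col-0 replicate 3 at 29.8, with sid2.2 replicates 1 and 3 between at 11.9 and -3.37. The main axis therefore did not follow the genotype labels, and values are also given with Col-0 replicate 3 left out along with sid2.2 replicate 2. Mean correlations with the other arrays were 0.935 for Col-0 replicate 3, 0.915 for sid2.2 replicate 2 and 0.913 for Col-0 replicate 2. Leaving out Col-0 replicate 3 removes the wild-type array nearest the mutant arrays on this axis, which can itself enlarge a genotype difference. The ratio of 3' to 5' actin signal, a measure of RNA and target length, was 4.81 to 4.91 in Col-0, against 5.34, 6.51 and 8.34 in sid2.2, and its part in the results was not tested. Of 6 rosette leaf markers 4 had a named probe set, and their summed signal was 37634 to 69150.5. Of 4 root markers 3 were named, with a sum of 857 to 1396. The root beta-glucosidase PYK10 read 32.0 to 232, and AT3G01190 read 1.28 to 16.7, under the bacterial control probe sets (95th percentile 27.9 to 39.9). None of 5 flower markers was named. In pools of whole rosettes, fewer cells of a type and less RNA per cell cannot be told apart.

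BGLU28 was the member that varied most. Its signals were 4701, 1256 and 13807 in Col-0 replicates 1, 2 and 3, against 8079, 14190.5 and 7224 in sid2.2. The genotypes overlapped, because the wild type held both the lowest array and the next to highest. Means were 6588 ± 6485 in Col-0 and 9831 ± 3799 in sid2.2 (SD, n = 3). The highest array exceeded the lowest 11.3-fold. The SD of its log2 signal over the 6 arrays was 1.30, larger than or equal to that of 98.95% of the 13647 probe sets tested (median 0.35).

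**Figure D1:**
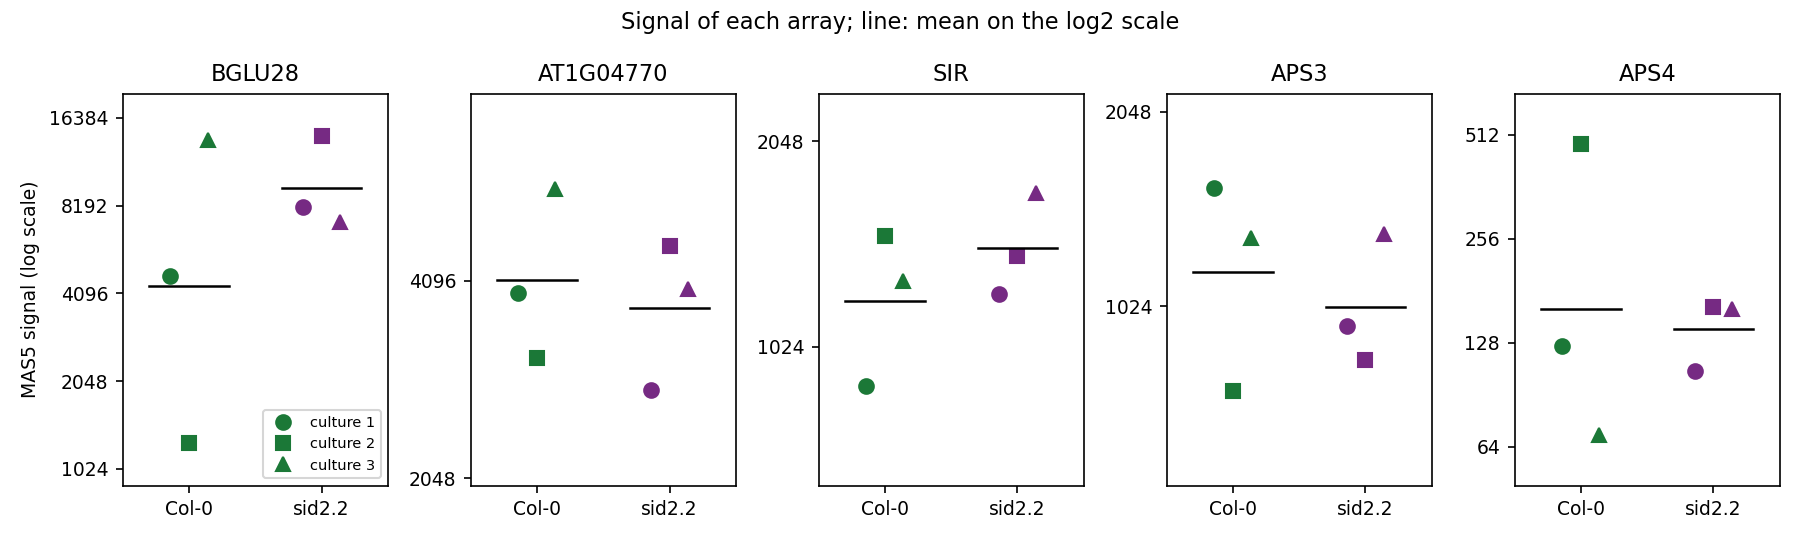
MAS5 signal of the 5 genes on a log axis, with 1 point per array, coloured by genotype and shaped by culture; the line is the mean on the log2 scale. BGLU28 spans 1256 to 14190.5 and APS4 spans 69.1 to 481, and in all 5 panels the genotypes overlap.

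AT1G04770, the other marker, moved within a much narrower range. It read 3921, 3127 and 5651 in Col-0, against 2791, 4632 and 3983 in sid2.2, a 2.02-fold range. Both markers had their highest 2 arrays in common, Col-0 replicate 3 and sid2.2 replicate 2. The low arrays differed: Col-0 replicate 2 was lowest for BGLU28, and sid2.2 replicate 1 for AT1G04770. Means were 4233 ± 1291 in Col-0 and 3802 ± 934 in sid2.2 (SD, n = 3).

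Sulfite reductase and the ATP sulfurylase APS3 also had narrower ranges than BGLU28. SIR read 896, 1487 and 1280 in Col-0, against 1222, 1390 and 1719 in sid2.2, a 1.92-fold range around means of 1221 ± 300 and 1444 ± 253. Its lowest array was Col-0 replicate 1 and its highest sid2.2 replicate 3. APS3 read 1560, 757 and 1308 in Col-0, against 955, 847 and 1323 in sid2.2, a 2.06-fold range around means of 1208 ± 411 and 1042 ± 250. Culture 2 gave the lowest APS3 array of each genotype. The SDs of log2 signal were 0.32 for SIR, 0.41 for APS3 and 0.37 for AT1G04770. They were at or above those of 43.8%, 64.6% and 55.8% of tested probe sets.

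APS4 had a spread unlike that of APS3. It read 125, 481 and 69.1 in Col-0, against 106, 162 and 160 in sid2.2, a 6.95-fold range. Col-0 replicate 2 stood alone as the high array, and the other 5 lay between 69.1 and 162. Means were 225 ± 223 in Col-0 and 143 ± 31.7 in sid2.2 (SD, n = 3). The SD of log2 signal, 0.94, was at or above that of 96.6% of tested probe sets. Its signal was above the bacterial controls on each array.

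**Figure D2:**
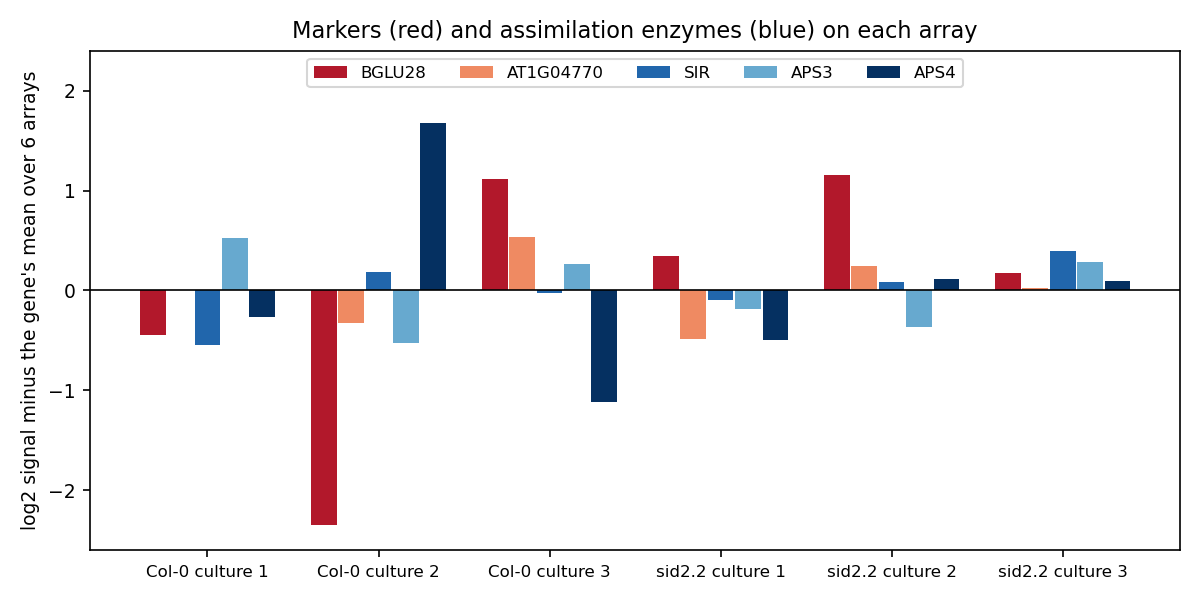
Log2 signal of each gene minus its own mean over the 6 arrays, for the 2 markers (red shades) and the 3 assimilation enzymes (blue shades) on each array. On Col-0 culture 2 BGLU28 is at -2.35 and APS4 at 1.68, and on Col-0 culture 3 they are at 1.11 and -1.12.

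The question that the genotypes answer here is whether lack of the ICS1 route moved these genes in plants that were all short of sulfate. None of the 5 passed limma, a linear model that shares the estimate of spread across all probe sets, at a Benjamini-Hochberg adjusted p under 0.05. Among all 13647 probe sets 0.022% were called, 0.0147% higher and 0.00733% lower, and among the members 0 of 5. At an unadjusted p under 0.05 there were also 0 of 5 members, against 7.4% of all probe sets (1010). The arrays of the genotypes overlapped for all 5 members, as they did for most tested probe sets: only 12% did not overlap (6.4% higher and 5.58% lower). BGLU28 had the largest difference, with sid2.2 above Col-0 by 1.11 on the log2 scale (SE 0.73), a 2.17-fold ratio. Its 95% interval, from -0.54 to 2.77, holds both a small decrease and a several-fold increase (limma adjusted p = 0.775).

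The other differences were small, though their intervals differ in width. SIR differed by 0.26 (SE 0.25; 95% interval -0.32 to 0.83; limma adjusted p = 0.840). AT1G04770 differed by -0.14 (SE 0.28; interval -0.77 to 0.49; adjusted p = 0.919). APS3 differed by -0.18 (SE 0.31; interval -0.88 to 0.53; adjusted p = 0.913). In this fit, which did not pair the arrays by culture, the intervals of these 3 genes leave out a doubling or halving on the log2 scale. APS4 differed by -0.20 (SE 0.62; adjusted p = 0.950), and its interval, -1.61 to 1.22, does not. No interval was computed with the arrays paired by culture. Paired intervals could be wider, because deviations from the genotype mean correlated at -0.53 and -0.55 in cultures 2 and 3. The median difference of all tested probe sets was -0.0051. Single arrays set the sign of the 3 negative differences. AT1G04770 came to 0.088 without Col-0 replicate 3 and 0.065 without sid2.2 replicate 1. APS3 came to 0.039 without Col-0 replicate 1, and APS4 to 0.59 without Col-0 replicate 2 and 0.0046 without sid2.2 replicate 1.

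**Figure D3:**
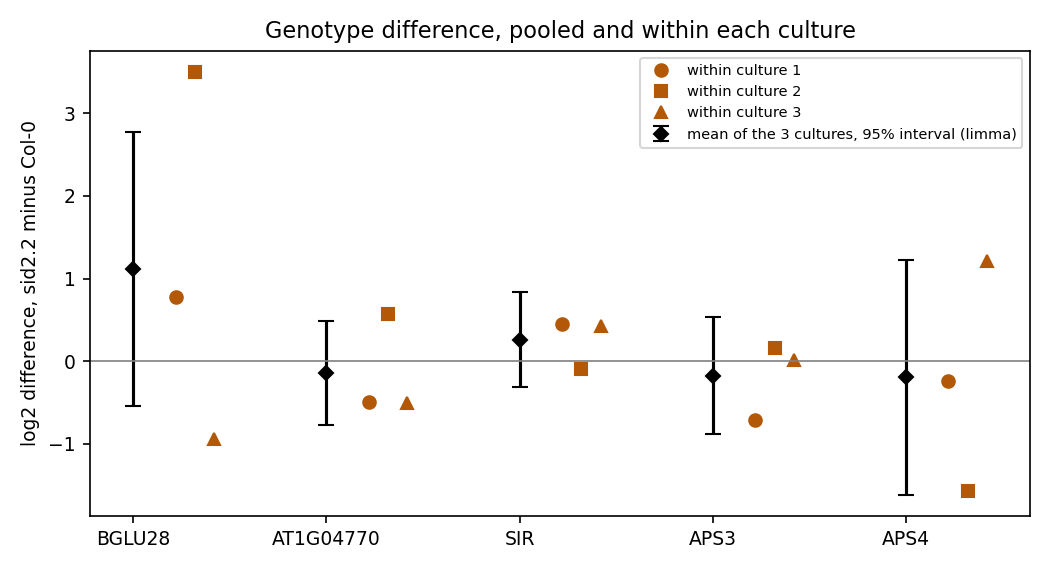
Log2 difference, sid2.2 minus Col-0, for each gene: the black diamond is the mean with limma's 95% interval, and the orange symbols are the differences within cultures 1, 2 and 3 (1 array per genotype each). The intervals of all 5 genes cross 0, and BGLU28 runs from -0.93 in culture 3 to 3.50 in culture 2.

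Within cultures the direction changed for every member. BGLU28 was higher in sid2.2 by 0.78 and 3.50 in cultures 1 and 2, and the difference was -0.93 in culture 3. APS4 ran the other way, with differences of -0.23, -1.57 and 1.21. AT1G04770 had -0.49, 0.57 and -0.50, SIR 0.45, -0.097 and 0.43, and APS3 -0.71, 0.16 and 0.017. None of the 5 kept a sign in all 3 cultures. Only 21.5% of the tested probe sets did, so a change of direction was the usual case and not particular to the members. With 1 array per genotype in a culture, none of these differences could be tested alone.

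For BGLU28 the culture kept in or left out decided the outcome. Without culture 3 its difference was 2.14 and passed (limma adjusted p = 0.0439), in a fit of 2 arrays against 2 that called 728 probe sets. Without culture 2 the difference was -0.077 (adjusted p = 0.999). Over single arrays it was lowest without Col-0 replicate 2 (0.22, adjusted p = 0.990) and highest without Col-0 replicate 3 (1.95, adjusted p = 0.0801). With sid2.2 replicate 2 and Col-0 replicate 3 both left out it was 1.65 (adjusted p = 0.118). Over all 18 alternatives its adjusted p ran from 0.0439 to 0.999.

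Cultures were compared next, to ask whether separate growths gave a different level of each gene whatever the genotype. No member passed limma's F test for culture, fitted with genotype in the model (0 of 5, adjusted p = 0.9999 for each). Of the 13647 probe sets 0% did, with 29 at an unadjusted p under 0.05. That is far fewer than this limit would give without any culture effect, so the missing calls do not show that the cultures were alike. APS4 had the smallest unadjusted value among the members, 0.124 in limma's F test. As a description, the variation of log2 signal was divided between genotype (1 degree of freedom), culture (2) and the remainder (2). Culture held 69.3% of it for APS3, 61.3% for SIR, 54.9% for APS4 and 40.2% for AT1G04770. For BGLU28 culture held 18.4%, genotype 22.2% and the remainder 59.4%. With 1 array per genotype and culture, the remainder holds noise between arrays together with any change of the genotype difference between cultures.

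Markers and enzymes were then compared over the arrays, each gene against its own mean, since signals of different probe sets share no scale. The mean deviation of the 2 markers minus that of the 3 enzymes was lowest on Col-0 replicate 2, at -1.78. It was highest on Col-0 replicate 3 (1.12) and sid2.2 replicate 2 (0.75), and lay between -0.15 and 0.19 on the other arrays. BGLU28 and APS4 made up most of both Col-0 extremes. On Col-0 replicate 2 BGLU28 was at -2.35 and APS4 at 1.68, while AT1G04770, SIR and APS3 stayed between -0.52 and 0.19.

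No pair of members was correlated past the threshold. Over 10 pairs and 6 arrays, the strongest relation was between BGLU28 and APS4, with a negative sign (Pearson r = -0.836, exact permutation p = 0.0556, adjusted p = 0.556). The rank correlation of the pair was weaker (Spearman rho = -0.371, exact permutation p = 0.497, adjusted p = 0.892). Its size depended on the arrays kept. Leaving out Col-0 replicate 2 alone gave r = -0.268 (exact permutation p = 0.667, unadjusted), and leaving out sid2.2 replicate 2 alone gave r = -0.958 (exact permutation p = 0.025, unadjusted). Without both, the 2 arrays farthest from the BGLU28 median, r was -0.765 over the 4 arrays left. Within genotypes r was -0.892 and within cultures -0.9198, with all 6 arrays in both.

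The 2 markers did not pass as a pair either. BGLU28 and AT1G04770 had r = 0.612 (exact permutation p = 0.20, adjusted p = 0.587) and rho = 0.600 (p = 0.242, adjusted p = 0.892, both from the exact permutation test). Without the 2 arrays farthest from the BGLU28 median r was 0.510, and with sid2.2 replicate 2 and Col-0 replicate 3 left out it was 0.165. The ATP sulfurylases APS3 and APS4 had r = -0.633 and rho = -0.543 (exact permutation p = 0.160 and 0.297, adjusted p = 0.587 and 0.892), and r = -0.383 without the 2 farthest arrays. The remaining 7 pairs had r from -0.498 to 0.420 and rho from -0.371 to 0.600, and r from -0.812 to 0.880 without the 2 farthest arrays. Over all 10 pairs the smallest adjusted p was 0.556 for Pearson and 0.892 for Spearman.

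BGLU28 followed the main axis of the arrays. Ordered by signal, its arrays ran from Col-0 replicate 2 through Col-0 replicate 1 and sid2.2 replicates 3 and 1 to Col-0 replicate 3 and sid2.2 replicate 2. That is the order of the first component, computed here without BGLU28 (rho = 1, exact permutation p = 0.00278, adjusted over 5 genes 0.0139). Pearson's r was 0.898 (exact permutation p = 0.00694, adjusted p = 0.0347), and 0.960 without the 2 arrays farthest from the median of the component. This comparison was not among the planned tests. The component also kept 582 probe sets with r over 0.9 to BGLU28, so these p-values describe the arrays and are no independent support. A close relation to the component was common: 12.6% of tested probe sets had an r beyond 0.9 in either direction, and 1.51% shared its order. BGLU28 itself, at 0.898, lay just under that limit, so at least that share of probe sets was as close. AT1G04770 had r = 0.525, APS4 -0.567, SIR 0.221 and APS3 -0.113 (smallest adjusted p = 0.486, exact permutation test).

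Rosette leaf markers also differed between these arrays. Their summed signal was lowest on Col-0 replicate 3 (37634) and sid2.2 replicate 2 (41150), the 2 arrays highest in BGLU28. It was highest on Col-0 replicate 2 (69150.5), the array lowest in BGLU28 and highest in APS4. The sum on sid2.2 replicate 3 was nearly as high (67114), although BGLU28 and APS4 were in the middle of their ranges there. Summed root markers ran from 857 on sid2.2 replicate 3 to 1396 on sid2.2 replicate 1, with 1360 and 1320 on Col-0 replicate 3 and sid2.2 replicate 2 and 1215 on Col-0 replicate 2. AT5G44020 made up most of that sum, while PYK10 read 44.4 and 32.0 on the 2 arrays highest in BGLU28 and 170 on Col-0 replicate 2. The part of leaf and root markers in these values was not tested.

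The rest of the sulfur pathway could be read in few genes. Of 8 further starvation-responsive loci, 12 of sulfate transport and 22 of assimilation to cysteine and glutathione, 0 had a probe set with 1 gene name, and these were not analysed here. Of 16 glucosinolate loci 3 were tested, with 0 higher and 0 lower (limma, smallest adjusted p = 0.913) and a median difference of -0.11. BCAT4, the aminotransferase that starts chain elongation of methionine for aliphatic glucosinolates, had the widest range, 27.2-fold. It read 279, 1498 and 83.4 in Col-0, against 494, 55.1 and 358 in sid2.2.

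BCAT4 was highest on the array where BGLU28 was lowest, and lowest on the 2 arrays where BGLU28 was highest. Over the 6 arrays r between them was -0.884 and rho -0.771, given as a description of arrays that also share the main axis. AT2G31790, a locus of the same list, had r = -0.774 with BGLU28, and UGT74B1, a glucosyltransferase of glucosinolate synthesis, had r = -0.608. Of all tested probe sets 96.7%, 88.95% and 78.8% had a higher r with BGLU28 than BCAT4, AT2G31790 and UGT74B1. Opposition to BGLU28 was not particular to these genes: the 4 rosette leaf markers had r from -0.486 to -0.927. With AT1G04770 r was -0.83 for BCAT4, -0.72 for AT2G31790 and -0.88 for UGT74B1, and 97.5%, 93.2% and 98.9% of tested probe sets were higher. With APS4 the 3 glucosinolate genes had r of 0.66, 0.55 and 0.71, which 6.51%, 12.4% and 4.42% of tested probe sets exceeded. The rho of BCAT4, AT2G31790 and UGT74B1 with APS4 was 0.257, 0.371 and 0.600. These relations were not particular to the glucosinolate genes either. The 4 rosette leaf markers had r from -0.514 to -0.783 with AT1G04770 and from 0.516 to 0.731 with APS4.

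**Figure D4:**
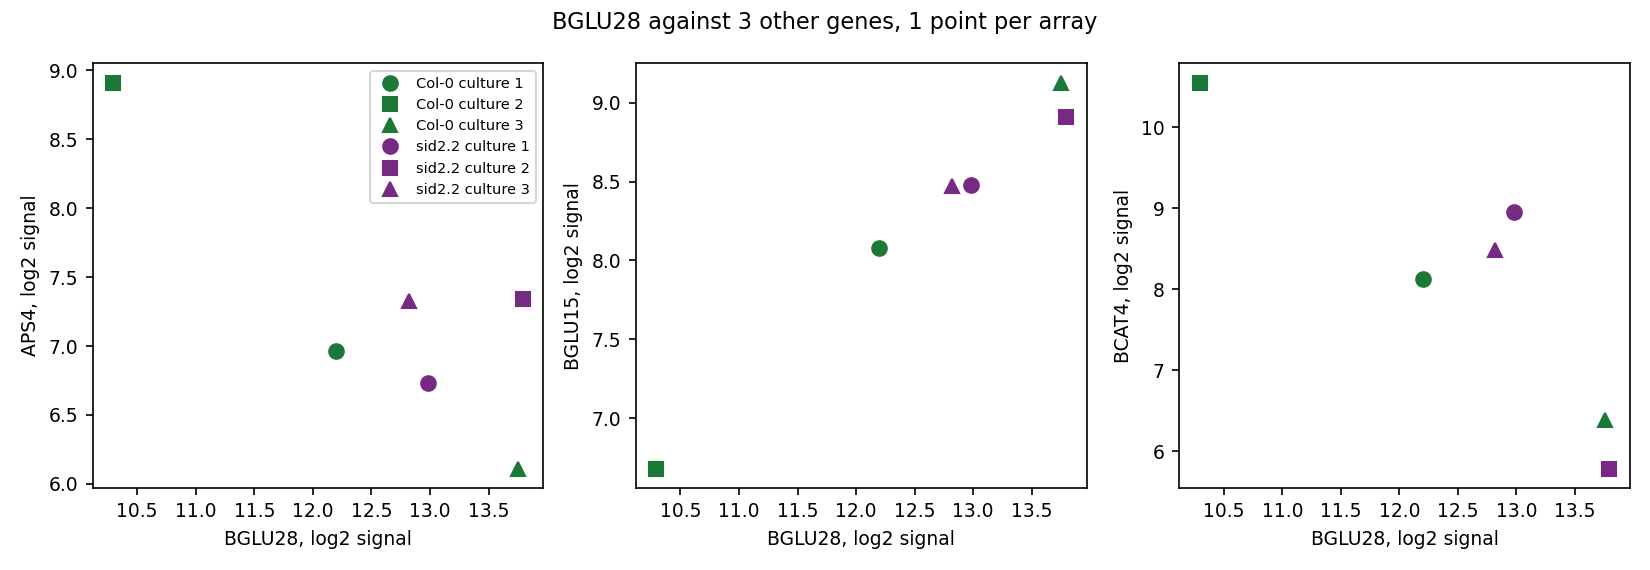
Log2 signal of BGLU28 (horizontal axis) against APS4, BGLU15 and BCAT4 (vertical axes), with 1 point per array, coloured by genotype and shaped by culture. BGLU15 lies high where BGLU28 does (r = 0.994), BCAT4 is lowest where BGLU28 is highest, and in the APS4 panel Col-0 culture 2 lies far from the other 5 points.

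Among other beta-glucosidases, BGLU15 had the pattern of BGLU28. In the gene order of the RefSeq table BGLU15 and BGLU29 are the neighbours of BGLU28 on either side. BGLU15 read 271, 103 and 559 in Col-0, against 356, 481 and 355 in sid2.2, with r = 0.994 and rho = 0.943 to BGLU28. Its genotype difference was 0.66 (SE 0.53; limma adjusted p = 0.817). BGLU29 was under the low-signal limit, at 6.75 to 47.1. Whether probes of one neighbour also bind transcripts of the other was not tested.

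Of 19 other beta-glucosidases with a BGLU symbol and a named probe set 10 were tested. Limma called 0 of them higher and 0 lower (6 above 0 and 4 below, median 0.31). PYK10, read here as a root marker, was not on this list. BGLU45 had r of 0.914 with BGLU28, and BGLU46 and BGLU16 had 0.834, a value that 8.43% of all tested probe sets exceeded. BGLU40 and BGLU47 ran opposite, at r = -0.961 and -0.837. BGLU40 read 936, 1628 and 597 in the wild type and 829, 460 and 669 in the mutant. The genotypes did not overlap for BGLU25, which was higher in every sid2.2 array (0.47, adjusted p = 0.739), and for BGLU47, which was lower (-1.12, adjusted p = 0.565), against 6.4% and 5.58% of all tested probe sets. Nor did they overlap for BGLU27, which was under the low-signal limit and so not tested. It read 4.69, 19.8 and 3.55 in the wild type, below the bacterial controls, and 70.5, 103.5 and 59.5 in the mutant.

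Genes with the pattern closest to each member were taken from 7386 tested probe sets with 1 gene name, by Pearson r over the 6 arrays. For BGLU28 the first 5 were GAMMA-VPE, a vacuolar processing protease, ATG8F, a ubiquitin-like protein of autophagosomes, B160, BGLU15 and AT1G05720, with r from 0.993 to 0.998. GAMMA-VPE read 12813, 6796 and 21830 in Col-0, against 17551, 21582 and 16413 in sid2.2, so it shared both high arrays and the low one. ATG8F, with 7231, 4306 and 10692 against 8583, 10701 and 8959, did so too. Of all other tested probe sets, 582 (4.26%) had r over 0.9 with BGLU28 and 347 (2.54%) under -0.9.

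Fewer probe sets were as close to the other members. With r over 0.9 there were 102 for AT1G04770 (0.747%), 114 for SIR (0.835%), 29 for APS3 (0.213%) and 46 for APS4 (0.337%). Closest to AT1G04770 were AT3G14910, AT5G04080, CML42, AT4G21865 and AT5G03660 (r 0.969 to 0.979). CML42, of the calmodulin-like family, read 568, 412 and 909 in Col-0, against 434, 649 and 583 in sid2.2. Closest to SIR were ANK1, AT3G01720, PKDM7D, AT3G57880 and AT1G21830 (r 0.982 to 0.996), to APS3 AT5G41760, AT5G24610, AT3G50350, ARV2 and AT1G26740 (r 0.965 to 0.994). Closest to APS4 were AT1G31920, AT1G11410, AT5G62030, AT5G11500 and AT4G28480 (r 0.959 to 0.967). No member was among the nearest 5 of another.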

How the data were processed

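Whole-rosette RNA of 6 pools was labelled with biotin and hybridised to 1-colour arrays. The deposited values are linear intensity, 1 per probe set and array, which the authors computed with MAS5 (named in the submitters' processing notes; version not given in the sources used here). MAS5 scaling removes changes in total signal, and dim values are noisy. Probe sets were named through the platform annotation, updated from a RefSeq gene table (TAIR10.1).

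Intensities were log2 transformed. Probe sets in the lowest 40% by mean signal and 64 controls were left out, which kept 13647, all 5 members included. Genotypes, and cultures beside genotype, were tested with limma 3.58.1 in R 4.3.3 (eBayes with trend, two-sided, adjusted over 13647). Correlations used exact two-sided permutation tests over 6 arrays; for values within genotypes or cultures, arrays were exchanged only within these. No depth exists for arrays, and 3 per genotype limit precision. On simulated data of the genotype comparison (13647 probe sets), 25.4% of 2-fold and 93.8% of 4-fold changes were called, with 10.6 false calls per set on average. The changed probe sets were drawn from all of them, and the noise was independent, unlike arrays that share a main axis. These shares need not hold for BGLU28 and APS4, whose SDs were at or above those of 98.95% and 96.6% of tested probe sets.

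Culture numbers in the labels mark a shared growth and pair the arrays; deviations from the genotype mean correlated at -0.035, -0.53 and -0.55 in cultures 1, 2 and 3. Named genes were the members, the tested genes of the sulfur, glucosinolate and beta-glucosidase lists, and the 5 nearest genes per member. PYK10, AT5G44020 and AT3G01190 come from the root marker list; BGLU27 and BGLU29, not tested, were named after their values were seen. Members and lists were chosen with earlier results of these data known.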

Additional observations from a re-analysis of the deposited data

Results flagged for a closer look

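In each of the 5 genes the difference between genotypes (log2, sid2.2 minus Col-0) had opposite signs in at least 2 cultures, each with 1 array per genotype, and the difference between cultures was not tested. The highest and lowest values were 3.50 in culture 2 and -0.93 in culture 3 for BGLU28, and 1.21 in culture 3 and -1.57 in culture 2 for APS4. For AT1G04770 they were 0.57 in culture 2 and -0.50 in culture 3, for SIR 0.45 in culture 1 and -0.097 in culture 2, and for APS3 0.16 in culture 2 and -0.71 in culture 1. Differences with 1 sign in all 3 cultures were found in only 21.5% of tested probe sets, so opposite signs were the usual case.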

How the results depend on the processing

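For the genotype comparison limma called 3 probe sets. It called 1 with quantile normalization, 0 with no filter, 5 with log2(intensity + 16), 1 without the eBayes trend, 0 with culture as a replicate block, 0 to 302 with 1 array left out, 0 without culture 1 or 2, 728 without culture 3 and 235 with sid2.2 replicate 2 and Col-0 replicate 3 left out. The causes were not tested. With the replicate block the adjusted p of the 5 members was 0.998 and no call among them changed. BGLU28 passed in 1 of 18 alternatives, without culture 3 (2.14, adjusted p = 0.0439), and turned without culture 2 (-0.077). AT1G04770 turned without culture 1 (0.031) or 3 (0.038), APS3 without culture 1 (0.089) or the 2 arrays (0.049), and APS4 without culture 2 (0.49). With 1 array left out AT1G04770 ran from -0.34 to 0.088, APS3 from -0.48 to 0.039 and APS4 from -0.80 to 0.59, while BGLU28 (0.22 to 1.95) and SIR (0.052 to 0.42) kept their sign. The culture test called 0 in its 6 alternatives. No pair correlation passed in any of 8 alternatives. With culture means removed none could pass, since only the 2 arrays of a culture were exchanged. With 2 arrays left out or within genotypes, exchanges were too few for a single pair to pass alone. Of 80 values 72 kept their sign. Among the other 8 were BGLU28 with SIR at 0.442 without the 2 farthest arrays, and BGLU28 with APS3 at -0.0857 (Spearman), -0.00226 (replicate block, culture means removed) and -0.369 (without the 2 farthest). The rest were AT1G04770 with SIR, 0.0015 at first, at -0.00753 (quantile), -0.866 (replicate block), -0.1000 (without the 2 farthest) and -0.053 (without sid2.2 replicate 2 and Col-0 replicate 3). A leave-one-array-out series for BGLU28 and APS4, added after seeing the data, ran from -0.958 to -0.268. Arrays give no depth, and the precision is limited by their number.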
